A study of Mus musculus with 24 samples.

Results

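Fas, Fadd, Tradd, Casp8, Casp9, Cflar, Bid and Casp6 were followed in neonatal mouse hippocampus. They encode a death receptor, adaptors of death receptors, caspases and regulators around them. They were chosen by name, with earlier results of these data known, as 8 of the 36163 gene names on the array. All their non-control probes were taken, which gave 10 of 55681 probes, 3 for Cflar and 1 for each of the other 7 genes. The study concerned opioid sedation of newborns, and hippocampal mRNA was measured on 15 Agilent arrays, 5 per group. All pups were C57BL/6, were labelled male and were killed on P9, and the hippocampi of both sides were combined. Control pups (Con) were untreated and stayed with the dam under minimal handling. From P5 onward, MS2 pups received morphine at 2 mg/kg and MS5 pups at 5 mg/kg, in each case with isolation from the dam in a warmer and repeated exposure to nitrogen and then oxygen. No group received morphine without stress or stress without morphine, so the contrasts with Con spanned both, and only MS5 versus MS2 compared doses under the same stress.

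Fas is a cell surface receptor whose intracellular death domain recruits Fadd, and Fadd in turn brings procaspase-8 into the signaling complex where it becomes active. Cflar encodes the FLIP proteins, relatives of caspase-8 that hold back its activation, and Tradd is the adaptor of the TNF receptor. Active caspase-8 cleaves Bid, which carries the signal to mitochondria and leads to activation of caspase-9 on the apoptosome, and caspase-6 acts downstream as an executioner protease with lamins among its substrates. In the developing hippocampus, apoptosis removes surplus neurons after birth.

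The probes on which the results rested are shown by their opening bases, 5′ to 3′. Each value below is the hybridization signal of such an oligonucleotide, and Cflar was read by probes assigned to different transcripts. Only the first 30 of 60 bases are printed, all in lower case since no motif was searched, and the positions are those the array files give on mm9. The Fadd probe lay at chr7:151764228-151764267 on the minus strand, a span of 40 bases in the file, the Casp8 probe at chr1:58901601-58901660 on the plus strand and the Casp6 probe at chr3:129616453-129616512 on the plus strand. The array files assign the Cflar probe A_55_P1983468, at chr1:58789994-58790053, to transcript variant 2, and A_55_P1983459, at chr1:58810660-58810719, and A_52_P226929, at chr1:58811116-58811175, to transcript variant 1, all on the plus strand. Exon and UTR positions were not analysed here.
Fadd A_51_P382925: atgagatgttctccccaaaacacacaaaag
Casp8 A_51_P247799: gtgaagaactgcgtttcctaccgagatcct
Casp6 A_51_P215922: accaaaaagctgcatttctgtcccaaacct
Cflar A_55_P1983468: ctttcttgctgatgtataaattgcctcctt
Cflar A_55_P1983459: tcatggacaaagtgtatgcgtggaacagtg
Cflar A_52_P226929: gatttgacactgaatgtaacttgagactta
The variant 2 probe of Cflar lies 20607 and 21063 bases upstream of the variant 1 probes.

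Several arrays stood apart in marker genes or in median spot signal. All 8 hippocampal neuron markers were well above background on every array. Their summed level was 14.0 (log2) on MS2 replicate 4 against 15.6 to 16.0 on the other 14 arrays. The summed level of 8 hypothalamus and thalamus markers was 15.0 on MS2 replicate 4. It was 13.7, 13.6 and 13.5 on MS5 replicates 8, 12 and 14, and 12.2 to 12.7 on the remaining arrays. The summed level of 10 choroid plexus markers was 16.0 on MS5 replicate 9 and 13.4 on MS5 replicate 14, against 17.6 to 18.3 elsewhere, and all 10 were lower in MS5 than in Con, 9 of them with an unadjusted p under 0.05. Of the hypothalamus and thalamus markers, 3 of 8 (Avp, Oxt and Trh) were higher in MS5 than in Con with such a p, and no marker of hippocampal neurons, astrocytes, oligodendrocytes, microglia, endothelium, meninges or blood differed with such a p. MS5 replicate 9, although labelled male, had Xist at 11.3 (log2) against 5.89 to 6.08 on the other 14 arrays, and Ddx3y at 6.24 against 11.01 to 11.45. MS2 replicate 5 was dim, with a median spot signal of 58.2 against 121 to 154. The arrays lay on 2 slides, each of which held all 3 groups, and 17.9% of all probes differed between slides with an unadjusted p under 0.05. The differences that passed are given below also without some of these arrays or within slides. The fit without MS2 replicate 4 and MS5 replicates 9 and 14 kept MS5 replicates 8 and 12.

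All 10 member probes were well above background on all 15 arrays. In MS5 relative to Con, 9 of the 10 were lower, while 49.8% of all probes were lower in MS5. With an unadjusted limma p under 0.05, 4 of the 10 differed, against 3.90% of all probes, and all 4 were lower in MS5, against 2.43% of all probes lower with such a p. These were Fadd, Casp8, Casp6 and the variant 2 probe of Cflar, and "fell" and "rose" are used below for differences with an unadjusted limma p under 0.05. The median difference of the members was -0.11 (log2), while the median of all probes was 0.00036 and 5 to 95% of all probes lay between -0.15 and 0.15. None of the 10 reached the study's threshold of a fold change above 1.5 with p under 0.05, which 0.228% of all probes passed. After Benjamini-Hochberg adjustment over 55681 probes no member was called, with an adjusted limma p of 1.00 for each, and neither was any other probe, the smallest adjusted p being 0.635. All 5 MS5 arrays lay below all 5 Con arrays for 3 member probes, as they did for 0.519% of all probes, and groups not overlapping in either direction made up 0.828%. The members were chosen with earlier results of these data known, so setting their counts beside the shares of all probes is no test. In RNA of whole tissue, fewer cells of a type and less RNA per cell cannot be told apart.

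**Figure D1:**
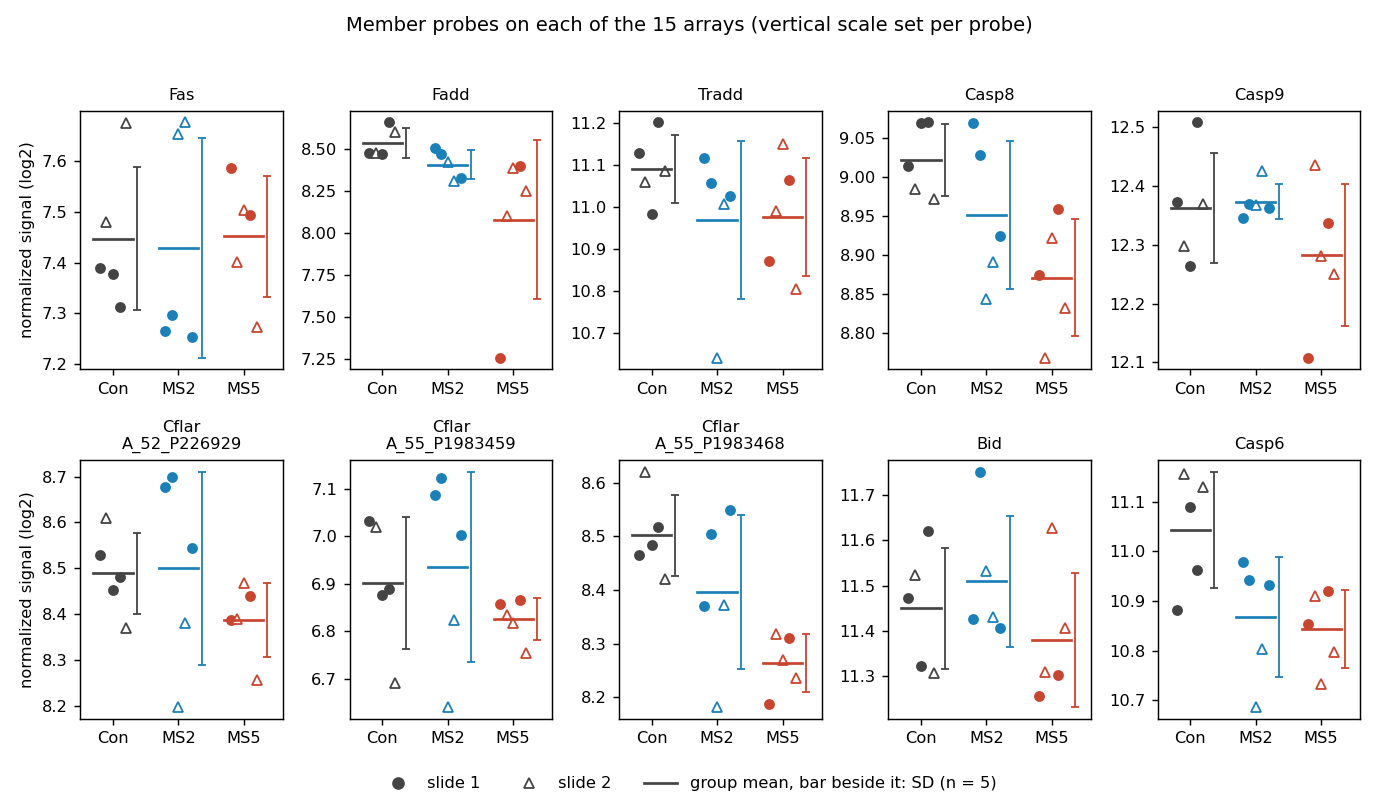
Normalized signal (log2, vertical axis, scaled per probe) of the 10 member probes on each array of the Con, MS2 and MS5 groups, with filled circles for slide 1, open triangles for slide 2, a line at the group mean and a bar for its SD (n = 5). The MS5 arrays lie wholly below the Con arrays for Fadd, Casp8 and Cflar A_55_P1983468, and 1 MS5 array of Fadd, at 7.26, lies far below the others.

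Fas, the receptor, had nearly the same mean in all groups. Its normalized signal was 7.45 ± 0.14 (SD, n = 5, log2) in Con, 7.43 ± 0.22 in MS2 and 7.45 ± 0.12 in MS5. The difference of MS5 from Con was 0.00 (log2), with a 95% interval of -0.20 to 0.21, which spans changes of -13.2% to 15.9% (limma p = 0.963, exact permutation p = 0.944). Fas carried 2 spots per array, of which the deposited table holds the first, and the log2 values of the 2 spots of an array differed by 0.045 to 0.30 with a median of 0.12. MS5 minus Con had opposite signs on the slides, 0.18 within slide 1 and -0.18 within slide 2.

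Fadd, the adaptor that links Fas to caspase-8, showed the largest difference among the 10 member probes. Its log2 signal on the Con arrays was 8.48, 8.48, 8.47, 8.66 and 8.60 for replicates 15 to 19. On the MS2 arrays it was 8.51, 8.48, 8.42, 8.31 and 8.33 for replicates 1, 3, 4, 5 and 7. On the MS5 arrays it was 7.26, 8.10, 8.39, 8.40 and 8.25 for replicates 8, 9, 12, 13 and 14. Every MS5 array thus lay under every Con array, MS2 arrays reached into the range of both other groups, and replicate 8 lay apart from its own group. Fadd fell by 27.2% from Con to MS5, a log2 difference of -0.46 ± 0.16 (SE) with a 95% interval of -0.81 to -0.11 (limma p = 0.0142, exact permutation p = 0.00794). The latter is the smallest p that 5 arrays against 5 can give. Without MS5 replicate 8 the difference was -0.25 with the unadjusted limma p still under 0.05, so this array moved its size but not its direction. Within slides it was -0.71 on slide 1, which held MS5 replicate 8, and -0.29 on slide 2. Without MS2 replicate 4 and MS5 replicates 9 and 14 it was -0.52, again with an unadjusted limma p under 0.05. That fit left 3 MS5 arrays and kept replicate 8, at 7.26, beside replicates 12 and 13, at 8.39 and 8.40. Its -0.52 therefore leaned on replicate 8 more than the difference over all arrays did. The difference of MS2 from Con was -0.13 (95% interval -0.48 to 0.22, limma p = 0.444, exact permutation p = 0.0635). That of MS5 from MS2 was -0.33 (-0.68 to 0.02, limma p = 0.0647, exact permutation p = 0.0714), or -0.12 without MS5 replicate 8.

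Tradd, which serves the TNF receptor rather than Fas, had signals of 11.09 ± 0.081 (SD, n = 5, log2) in Con, 10.97 ± 0.19 in MS2 and 10.98 ± 0.14 in MS5. MS5 differed from Con by -0.12 (95% interval -0.30 to 0.07, exact permutation p = 0.175) and MS2 from Con by -0.12 (-0.31 to 0.06, exact permutation p = 0.206). The lowest Tradd signal in MS2 was 10.64 on replicate 4, the array with low hippocampal neuron markers, and without it MS2 differed from Con by -0.04.

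Casp8, the initiator caspase activated through Fadd, fell by 9.95% from Con to MS5, a log2 difference of -0.15 ± 0.050 (SE) with a 95% interval of -0.26 to -0.04 (limma p = 0.00848, exact permutation p = 0.00794). Its log2 signal was 9.01, 8.98, 9.07, 9.07 and 8.97 on Con replicates 15 to 19. It was 9.07, 9.03, 8.84, 8.89 and 8.92 on MS2 replicates 1, 3, 4, 5 and 7, and 8.87, 8.77, 8.92, 8.96 and 8.83 on MS5 replicates 8, 9, 12, 13 and 14. The MS5 and Con arrays did not overlap, although only a narrow gap parted the highest MS5 array from the lowest Con array, and MS2 spanned nearly the whole range. Casp8 also differed between slides, by -0.10 on slide 2 relative to slide 1 (unadjusted limma p under 0.05). With slide as a block MS5 minus Con was -0.13, its unadjusted p still under 0.05, and within the slides it was -0.13 and -0.14. MS5 replicates 9 and 14, the arrays with low choroid plexus markers, had the lowest Casp8 signals of their group. Without them and MS2 replicate 4, the difference was -0.10 and its unadjusted limma p, 0.0652, no longer passed, with 3 MS5 arrays left. MS2 differed from Con by -0.07 (95% interval -0.18 to 0.04, exact permutation p = 0.175) and MS5 from MS2 by -0.08 (-0.19 to 0.03, exact permutation p = 0.175).

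Casp9, the initiator caspase of the mitochondrial route, differed between MS5 and Con by -0.08 (95% interval -0.20 to 0.04, exact permutation p = 0.294) and between MS2 and Con by 0.01 (-0.11 to 0.13, exact permutation p = 0.873). Its signal was 12.36 ± 0.094 (SD, n = 5, log2) in Con, 12.37 ± 0.030 in MS2 and 12.28 ± 0.12 in MS5. Between MS5 and Con it was -0.16 within slide 1 and -0.01 within slide 2, -0.04 without MS5 replicate 8 and -0.12 without MS5 replicate 9. The Casp9 values of MS2 had the smallest SD of any member probe in any group. Casp9 was lowest on MS5 replicate 8, at 12.11, the same array on which Fadd was lowest.

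Cflar, the brake on caspase-8, was read by 3 probes, and only the variant 2 probe had an unadjusted p under 0.05 in MS5 versus Con. The log2 signal of A_55_P1983468 was 8.47, 8.62, 8.48, 8.52 and 8.42 on Con replicates 15 to 19. On MS2 it was 8.37, 8.50, 8.18, 8.37 and 8.55 for replicates 1, 3, 4, 5 and 7, and on MS5 it was 8.19, 8.32, 8.27, 8.31 and 8.24 for replicates 8, 9, 12, 13 and 14. The 5 MS5 arrays were close together and lay below all Con arrays, while MS2 spread across both. The signal of the variant 2 probe fell by 15.2% from Con to MS5, a log2 difference of -0.24 ± 0.062 (SE) with a 95% interval of -0.37 to -0.10 (limma p = 0.00173, exact permutation p = 0.00794). The difference was -0.24 within slide 1, -0.25 within slide 2 and -0.25 without MS2 replicate 4 and MS5 replicates 9 and 14. By its limma p it ranked 76 of 55681 probes in this contrast. No probe of the array had an adjusted limma p under 0.05 there, the smallest being 0.635, so the rank does not set it apart.

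The variant 1 probes of Cflar differed between MS5 and Con by -0.10 for A_52_P226929 (95% interval -0.28 to 0.08, exact permutation p = 0.119) and by -0.08 for A_55_P1983459 (-0.26 to 0.11, exact permutation p = 0.246). In MS2 both had wide spreads, with SDs of 0.21 and 0.20 (log2, n = 5) against 0.081 and 0.044 in MS5. A_55_P1983459 also differed between slides, by -0.16 on slide 2 relative to slide 1 (unadjusted limma p under 0.05). The signal of the variant 2 probe less the mean of the variant 1 probes on the same array, a measure chosen after the values were seen and so given without a test, differed by -0.15 between MS5 and Con, by -0.13 between MS2 and Con and by -0.02 between MS5 and MS2.

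Bid, which caspase-8 cleaves and which connects the receptor route to mitochondria, had signals of 11.45 ± 0.13 (SD, n = 5, log2) in Con, 11.51 ± 0.14 in MS2 and 11.38 ± 0.15 in MS5. Its difference was -0.07 for MS5 from Con (95% interval -0.25 to 0.11, exact permutation p = 0.452), 0.06 for MS2 from Con (-0.12 to 0.24, exact permutation p = 0.516) and -0.13 for MS5 from MS2 (-0.31 to 0.05, exact permutation p = 0.1905). Between MS5 and Con it was -0.19 within slide 1 and 0.03 within slide 2, and it ranged from -0.03 without Con replicate 18 to -0.13 without MS5 replicate 12. The Bid values of the groups overlapped throughout.

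Casp6, the executioner caspase, was the only member with an unadjusted p under 0.05 at both doses. Its log2 signal on Con replicates 15 to 19 was 10.88, 11.16, 11.09, 10.96 and 11.13. On MS2 replicates 1, 3, 4, 5 and 7 it was 10.98, 10.94, 10.69, 10.80 and 10.93, and on MS5 replicates 8, 9, 12, 13 and 14 it was 10.85, 10.91, 10.73, 10.92 and 10.80. The lowest Con array, replicate 15, lay inside the range of both treated groups, and the other 4 Con arrays lay above all MS5 arrays. Casp6 fell by 12.99% from Con to MS5, a log2 difference of -0.20 ± 0.066 (SE) with a 95% interval of -0.34 to -0.06 (limma p = 0.00887, exact permutation p = 0.0238). From Con to MS2 it fell by 11.4%, a log2 difference of -0.18 (-0.32 to -0.03), but here the tests parted, with a limma p = 0.0190 and an exact permutation p = 0.0635. Between MS5 and MS2 the difference was -0.03 (-0.17 to 0.12, exact permutation p = 0.698).

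The Casp6 differences from Con were larger within slide 2 than within slide 1. Each slide held only 2 or 3 arrays per group, and whether the slides differed in this was not tested. The lowest Con array, replicate 15 at 10.88, lay on slide 1. MS5 minus Con was -0.09 within slide 1 and -0.33 within slide 2, and MS2 minus Con was -0.03 within slide 1 and -0.40 within slide 2. Both MS2 arrays of slide 2 were among those that stood apart, namely replicate 4 with low hippocampal neuron markers and replicate 5 with a dim signal. Without MS2 replicate 4 the MS2 difference was -0.13, and without Con replicate 16 it was -0.15, and in both cases its unadjusted limma p was above 0.05. With slide as a block, MS5 minus Con was -0.19 and MS2 minus Con -0.18, and without MS2 replicate 4 and MS5 replicates 9 and 14 MS5 minus Con was -0.21, each with an unadjusted limma p under 0.05.

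**Figure D2:**
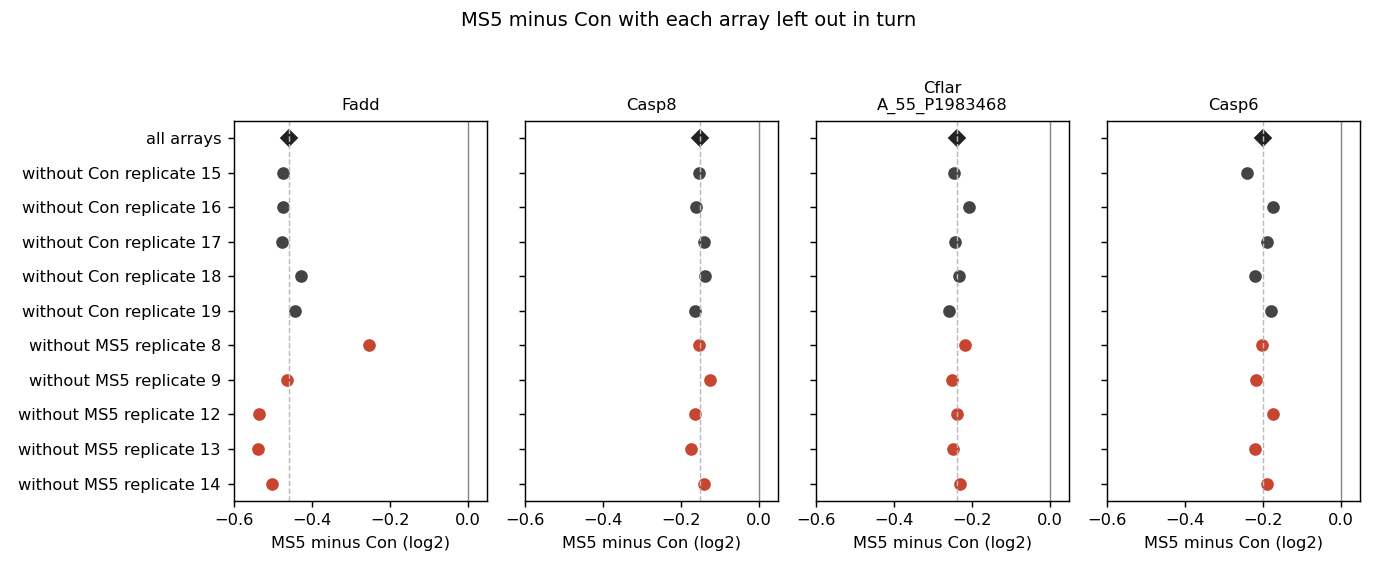
Difference of MS5 from Con (log2, horizontal axis) for the 4 member probes with an unadjusted p under 0.05, with all arrays (diamond) and with each Con or MS5 array left out in turn (circles). The Fadd difference moves from -0.46 to -0.25 without MS5 replicate 8, while Casp8 stays between -0.17 and -0.13, Cflar A_55_P1983468 between -0.26 and -0.21 and Casp6 between -0.24 and -0.17.

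In MS2 relative to Con, 6 of the 10 member probes were lower and 4 higher, while 51.0% of all probes were lower. Casp6 was the only one of the 10 with an unadjusted limma p under 0.05, against 4.17% of all probes. No member had groups that did not overlap, against 0.702% of all probes, none passed the study's fold threshold, which 0.0233% of all probes passed, and the adjusted limma p of the members was 0.970 or more. The median difference of the members was -0.04 (log2), against -0.0017 for all probes. In MS5 relative to MS2, 8 of the 10 were lower with a median difference of -0.10, none had an unadjusted limma p under 0.05, against 3.97% of all probes, and none had groups that did not overlap, against 0.621%. The adjusted limma p was 1.00 for each member in MS5 versus MS2. The 3 contrasts share arrays, so the values of MS5 and MS2 against Con are not independent of each other.

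The number of members with an unadjusted p under 0.05 between the doses rested on single arrays. MS2 replicate 4 had the lowest signal of the MS2 group for Tradd, Casp8, Casp6 and all 3 Cflar probes. Without it, Casp8 differed between MS5 and MS2 by -0.11, Cflar A_55_P1983468 by -0.18, A_52_P226929 by -0.19 and A_55_P1983459 by -0.18, each with an unadjusted limma p under 0.05. Without MS5 replicate 9 this p was passed by Casp9, at -0.13, and Cflar A_55_P1983468, at -0.14. Without MS5 replicate 12 it was passed by Fadd, at -0.41, and Bid, at -0.19, and without MS5 replicate 13 by Fadd, at -0.41. With MS2 replicate 4 and MS5 replicates 9 and 14 all left out, Cflar A_55_P1983468 alone had an unadjusted p under 0.05, at a difference of -0.19.

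**Figure D3:**
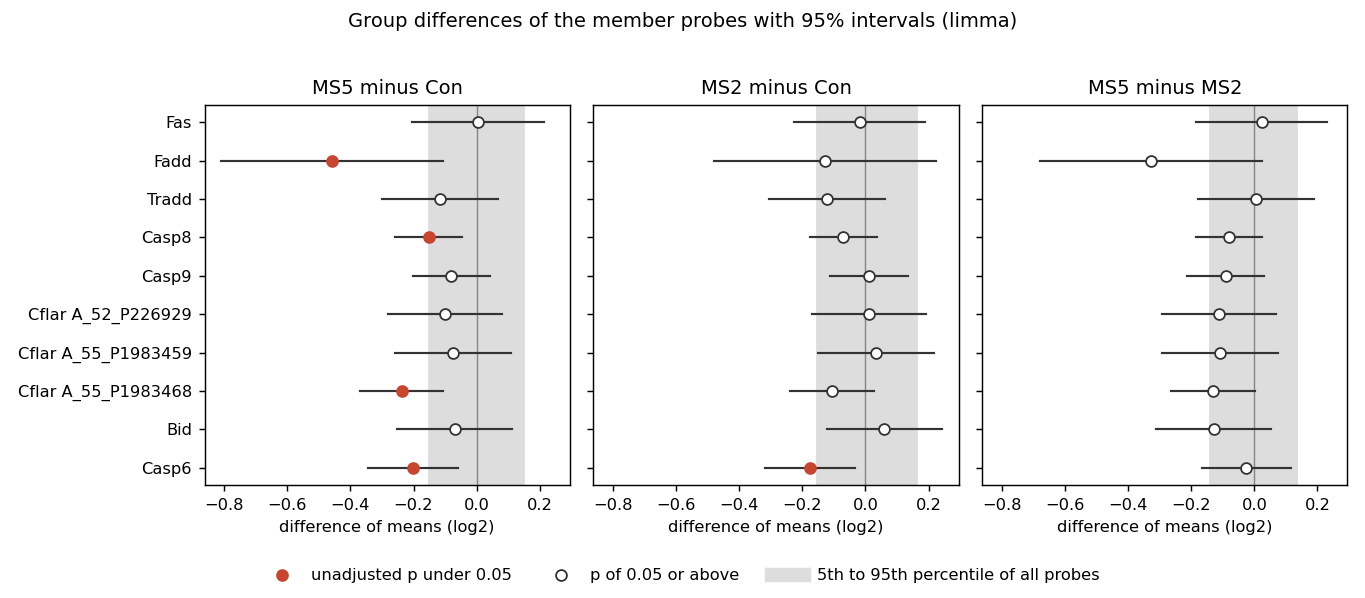
Differences between groups (log2, horizontal axis) of the 10 member probes in the 3 contrasts, with 95% limma intervals, filled points for an unadjusted p under 0.05 and grey bands for the 5th to 95th percentile of all 55681 probes. In MS5 minus Con 4 probes are filled, all to the left of 0, in MS2 minus Con only Casp6 is, and in MS5 minus MS2 none is.

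The other genes of the apoptosis machinery did not shift to one side. Of 65 further genes, from ligands and receptors to the inhibitors of apoptosis (IAPs), Bcl2 family and caspase substrates, 33 were lower and 32 higher in MS5 than in Con, with a median difference of -0.0046 (log2). With an unadjusted limma p under 0.05, 2 were lower and 2 higher, 4 of 65 against 3.90% of all probes, and none passed the adjusted p or the 1.5-fold threshold, which 0.228% of all probes passed. In MS2 versus Con, 32 were lower and 33 higher, of which 3 and 2 had p under 0.05, 5 of 65 against 4.17% of all probes. No gene among the 5 ligands, 5 IAPs, 7 other caspases, 6 apoptosome or mitochondrial genes and 14 Bcl2 family genes had an unadjusted p under 0.05 in either contrast with Con. Among these, Tnf was well above background on only 3 of 15 arrays, and Lta, Birc3, Casp12, Bik and Bcl2l11 on 14. For such dim probes, above all Tnf, the lack of a difference says little. The differences of the other caspases from Con ranged from -0.15 to 0.08 in MS5 and from -0.21 to 0.23 in MS2.

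Both TNF receptors were lower in MS5. Tnfrsf1b, the type 2 TNF receptor, had signals of 7.14 ± 0.080 (SD, n = 5, log2) in Con, 7.01 ± 0.085 in MS2 and 6.96 ± 0.077 in MS5. It fell by 0.18 in MS5 (limma p = 0.00375, exact permutation p = 0.0159) and by 0.14 in MS2 (limma p = 0.0221, exact permutation p = 0.0476). Tnfrsf1a, the type 1 receptor that signals through Tradd, fell by 0.23 in MS5 (limma p = 0.0207, exact permutation p = 0.0397) and differed by -0.10 in MS2 (exact permutation p = 0.357). A second Tnfrsf1a probe differed by 0.02 in MS5 (exact permutation p = 0.881), so the fall rested on 1 of the 2 probes. Without MS2 replicate 4 and MS5 replicates 9 and 14, Tnfrsf1a differed by -0.21 in MS5 and Tnfrsf1b by -0.11 in MS2, both with an unadjusted limma p above 0.05, while Tnfrsf1b in MS5 was at -0.16 with a p still under 0.05. Within slides 1 and 2 the MS5 difference of Tnfrsf1a was -0.13 and -0.37, and that of Tnfrsf1b -0.13 and -0.19.

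Of the higher genes, Madd, a death domain protein that binds the type 1 TNF receptor, rose by 0.21 in MS5 (limma p = 0.0107, exact permutation p = 0.0317) and by 0.23 in MS2 (limma p = 0.00556, exact permutation p = 0.00794), where all 5 arrays lay above all Con arrays. A second Madd probe differed by -0.02 in MS5 and by -0.06 in MS2 (exact permutation p = 0.833 and 0.698), so the probes of this gene disagreed. Acin1, a caspase substrate known for its part in chromatin condensation, rose by 0.19 in MS5 and by 0.21 in MS2 (limma p = 0.00403 and 0.00237, exact permutation p = 0.0238 for each), while its second probe differed by 0.15 and 0.09 (exact permutation p = 0.0873 and 0.444). Without the same 3 arrays Madd differed by 0.18 in MS5, its unadjusted limma p above 0.05, and by 0.24 in MS2, and Acin1 by 0.20 in both, with a p under 0.05 for Madd in MS2 and for Acin1. The caspase substrates Pak2, a kinase, and Parp1, a DNA repair enzyme, fell in MS2 by 0.15 and 0.14 by limma (p = 0.0317 and 0.0390, exact permutation p = 0.0635 for each). In MS5 they were higher than in MS2 by 0.21 and 0.15 (limma p = 0.00581 and 0.0269, exact permutation p = 0.0317 and 0.0397). Without the 3 arrays the MS2 difference from Con was -0.13 for Pak2 and -0.09 for Parp1, both with an unadjusted limma p above 0.05, and without MS2 replicate 5 and MS5 replicate 9 it was -0.10 and -0.14, again above 0.05. Both MS2 differences were larger within slide 2, at -0.28 for Pak2 and -0.34 for Parp1, than within slide 1, at -0.07 and -0.0067. Between MS5 and MS2, Pak2 without the 3 arrays was at 0.21 with a p under 0.05 and Parp1 at 0.11 with a p above 0.05.

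**Figure D4:**
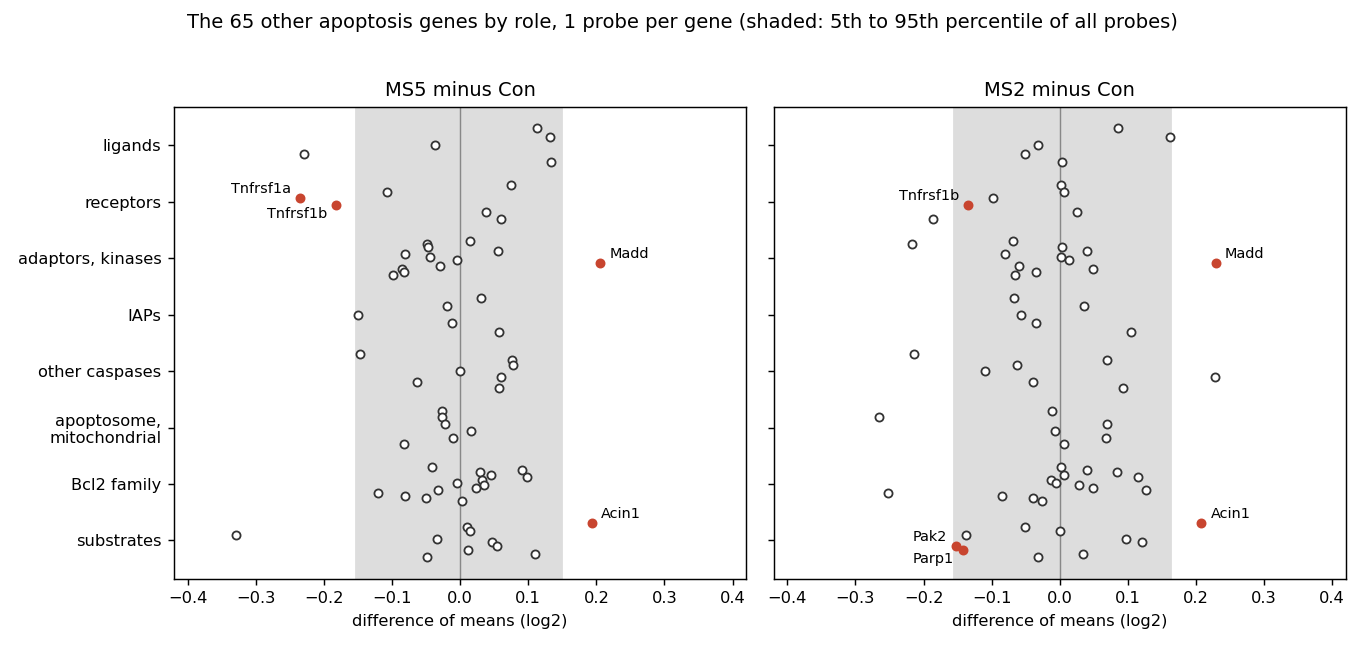
Differences from Con (log2, horizontal axis) of the 65 other apoptosis genes, grouped by role on the vertical axis with 1 probe per gene, for MS5 and MS2, with filled and named points for an unadjusted p under 0.05 and a grey band for the 5th to 95th percentile of all probes. Tnfrsf1a and Tnfrsf1b lie to the left and Madd and Acin1 to the right in MS5, and the genes as a whole lie on both sides of 0.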

How the data were processed

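The mRNA arrays of 15 hippocampal samples were used, and the 9 miR arrays were not. The deposited scanner files hold an intensity for each of 62976 spots per array. The authors' table holds log2 values after their normexp background correction and quantile normalization. These deposited log2 values were the main values, with the first spot of each probe. Rebuilding them from the intensity files with a normexp offset of 50 gave a largest difference of 5e-09. Groups came from the sample labels. The study's methods say that treated pups went back to a cage shared with control littermates, but the labels tie no sample to a litter, so litter could not enter the fit. R 4.3.3 with limma 3.58.1 (lmFit and eBayes, 1 fit of 3 groups) was used on all 55681 non-control probes, with Benjamini-Hochberg adjustment over all of them. The member probes and the probes of the gene lists also received an exact permutation test, two-sided, over 252 assignments. The other probes of the array did not. The fit was tested on simulated data. The number of arrays limited the precision, as did background for dim probes.

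The members and gene lists were chosen with earlier results of these data known. The text names every member, and of the 65 further apoptosis genes at most 12 with an unadjusted p under 0.05 in MS5 or MS2 versus Con. Each of these was represented by the probe named A_51 or A_52 with the highest mean, or otherwise by the probe with the highest mean. The alternatives were array weights, spots averaged, a normexp offset of 0, the processed signal scaled to the 75th percentile, only probes well above background, slide as a block, within slides, only the 2 groups compared, other probes per gene, and leaving out each array. Leaving out MS5 replicate 9 with MS2 replicate 5, and MS2 replicate 4 with MS5 replicates 9 and 14, was chosen after seeing the data. Summed marker levels are log2 of the sum of the markers' linear signals.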

Additional observations from a re-analysis of the deposited data

Results flagged for a closer look

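Among 30 groups of 5 arrays (10 member probes in 3 groups), 2 held an array whose gap to its nearest neighbour was beyond Dixon's critical value at the 95% level, and chance alone sets about 1 group in every 20 apart. The Fadd signal of MS5 replicate 8 was 7.26 (log2), where the next lowest MS5 array was 8.10. The Tradd signal of MS2 replicate 4 was 10.64 (log2), where the next lowest MS2 array was 11.01.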

How the results depend on the processing

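Fadd, Casp8, Casp6 and the variant 2 probe of Cflar kept their direction and an unadjusted p under 0.05 in MS5 versus Con with array weights, spots averaged, an offset of 0, the processed signal, the background filter, slide as a block and only 2 groups, and in all 10 fits without 1 array. The number of member probes with such a p was then 4 throughout, and 3 to 4 did not overlap. Casp8 lost this p, at -0.10, without MS2 replicate 4 and MS5 replicates 9 and 14. In MS2 versus Con the number was 0 with array weights and without those 3 arrays, 2 with only the 2 groups compared, and 0 to 2 without 1 array (0 without Con replicate 16 or MS2 replicate 4, 2 without MS2 replicate 7). In MS5 versus MS2 it was 5 with array weights, 1 without the 3 arrays and 0 to 4 without 1 array (4 without MS2 replicate 4, 2 without MS5 replicate 9 or 12, 1 without MS5 replicate 13). Of groups that did not overlap there were 0 to 1 without 1 array (1 without MS2 replicate 4 or MS5 replicate 9), 1 without MS5 replicate 9 and MS2 replicate 5, and 2 without the 3 arrays.

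Small differences turned their sign, and the cause was not tested. Fas in MS5 versus Con was -0.0044 with array weights, -0.043 with spots averaged, -0.057 at an offset of 0, -0.010 with the processed signal and -0.026 with slide as a block, and -0.029 to 0.062 without 1 array. Fas in MS5 versus MS2 was -0.0082 with slide as a block and -0.021 to 0.084 without 1 array. Tradd in MS5 versus MS2 was -0.091 with array weights, -0.024 without the 3 arrays and -0.076 to 0.049 without 1 array. Casp9 in MS2 versus Con was -0.0016 without MS5 replicate 9 and MS2 replicate 5. Without 1 array, MS2 minus Con ranged from -0.080 to 0.039 for Fas, -0.013 to 0.048 for Casp9, -0.00069 to 0.10 for Bid, -0.039 to 0.087 for Cflar A_52_P226929 and -0.019 to 0.11 for A_55_P1983459, and MS5 minus MS2 from -0.071 to 0.0020 for Casp6.

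Of the 65 further genes, the number with p under 0.05 in MS5 versus Con was 1 with the brightest probe per gene, 2 with the mean of all probes, 2 without the 3 arrays and 3 to 6 without 1 array, when 30 to 37 were lower. In MS2 versus Con it was 3 with the brightest probe, 2 without the 3 arrays, 8 without MS5 replicate 9 and MS2 replicate 5, and 2 to 8 without 1 array (2 without MS2 replicate 4, 8 without MS2 replicate 5), when 33 to 37 were lower. No paired analysis was possible because the groups compared share no replicate numbers and the labels name no litters.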
